A study of Homo sapiens with 5 samples.

Results

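Chromosomes 16 and 17 of HL60 cells were described through all 344 of their 500 kb bins, 181 on chromosome 16 and 163 on chromosome 17, out of 6083 bins on the autosomes and chromosome X and 6203 in the deposited matrices. Of these, 316 bins had enough contacts for maps, which was set at 0.2 times the median bin in every matrix, and the bins around both centromeres, 35.5 to 46.5 Mb on chromosome 16 and 22.5 to 25 Mb on chromosome 17, did not. HL60 is an established line from a human promyelocytic leukemia with a heavily rearranged karyotype. The 3 conditions were all-trans retinoic acid (ATRA), under which HL60 cells take on traits of granulocytes, the phorbol ester TPA, under which they take on traits of macrophages, and untreated cells. The sources used here state neither dose nor time. ATRA had 1 library, TPA 2 and untreated cells 2, and each condition was held in 1 matrix of raw contact counts on hg19. The 3 conditions are therefore single measurements of 1 line, no p-value is given, and every interval is a 95% interval that covers counting error only. Nothing in the labels separates treatment from library, so the effects of the 2 cannot be told apart.

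Hi-C counts pairs of DNA fragments that lay close together in the nucleus. Within a chromosome, contacts fall with distance along the DNA, so a piece of one chromosome that has been joined to a piece of another shows a block of contacts between chromosomes that is strongest at the join and fades away from it, and the side of the break that carries the block gives the orientation. Chromatin also sorts into an open, gene-rich A compartment and a closed B compartment, and regions of the same kind meet more often. Chromosome 17 carries RARA, which encodes the retinoic acid receptor that ATRA binds, and MPO, the granule enzyme of promyelocytes, on its long arm. Chromosome 16 carries ITGAM, which encodes an adhesion receptor of mature myeloid cells, on its short arm and CBFB, whose product partners the RUNX factors of blood cells, on its long arm. Both chromosomes are rich in genes. No gene was placed in a bin, because a gene annotation of hg19 was not used here.

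The matrices held 9632300 contacts in ATRA, 10423501 in TPA and 10628045 in untreated cells on the autosomes and X. Contacts with an end on chromosome 16 or 17 made up 10.1%, 10.3% and 10.5% of them in the same order. The median kept bin of the pair of chromosomes held 3608.5 contacts in ATRA, 3987.5 in TPA and 4293 in untreated cells. Coverage, joins, contacts across breaks and compartments are given below, followed by the differences in ATRA and TPA.

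The joins described further on divided chromosome 16 into 7 pieces and chromosome 17 into 5. On chromosome 16 they were 16a (0 to 5 Mb), 16b (5 to 15 Mb), 16c (15 to 28 Mb) and 16d (28 to 35.5 Mb) on the short arm, and 16e (46.5 to 81.5 Mb), 16f (81.5 to 85.5 Mb) and 16g (85.5 to 90.5 Mb) on the long arm. On chromosome 17 they were 17a (0 to 20.5 Mb) and 17b (20.5 to 22.5 Mb) on the short arm, and 17c (25 to 48.5 Mb), 17d (48.5 to 74 Mb) and 17e (74 to 81.5 Mb) on the long arm. Coverage is the number of contacts of a bin over that of the median bin of autosomes and X. It follows copy number, but also the density of HindIII sites and how well reads map, and these cannot be told apart here. More copies of a region and more contacts per copy cannot be told apart either.

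Both chromosomes were covered above the genome's median bin, and uneven along their length. The median bin of chromosome 16 stood at 1.14 in ATRA, 1.22 in TPA and 1.26 in untreated cells, the third highest of 23 chromosomes in the summed matrix, and that of chromosome 17 at 1.06, 1.08 and 1.199, the seventh highest. The lowest piece was 16g, the end of the long arm, with a mean coverage of 0.602 in ATRA, 0.714 in TPA and 0.788 in untreated cells. The neighbouring 16f had the highest in ATRA, with 1.33, and 1.38 in TPA and 1.48 in untreated cells. The drop from 16f to 16g was 1.14 on the log2 scale in ATRA, 0.95 in TPA and 0.91 in untreated cells. These pieces were cut at the join border, so the drop does not show where the step lies. The short arm piece 17a had 0.798, 0.824 and 0.914 in ATRA, TPA and untreated cells, below 17c with 1.16, 1.26 and 1.37 on the other side of the centromere. Piece 16d was low at 0.695, 0.753 and 0.795, and 17e, the end of 17q, was the highest in untreated cells at 1.55, against 1.17 in ATRA and 1.38 in TPA.

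**Figure D1:**
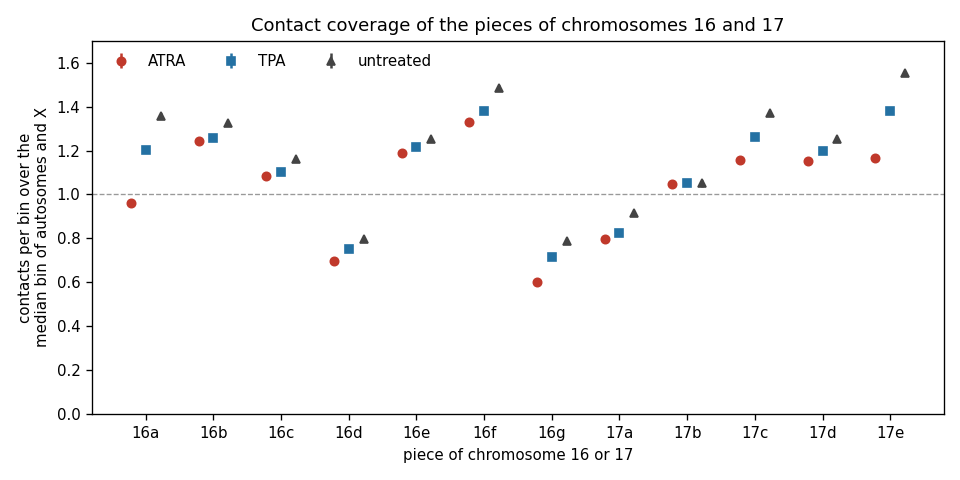
Mean contacts per bin over the median bin of autosomes and X (y axis, linear from 0) for the 7 pieces of chromosome 16 and the 5 pieces of chromosome 17 (x axis), in ATRA (circles), TPA (squares) and untreated cells (triangles). The 95% Poisson intervals are narrower than the symbols, and 16d, 16g and 17a lie below 1 in all 3 matrices.

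A search for steps in coverage alone, without the joins, placed 11 borders and so 13 segments. It gave 9 segments on chromosome 16 and 4 on chromosome 17. On 16q the last segment, 87 to 90 Mb, had 0.517 in ATRA, 0.634 in TPA and 0.720 in untreated cells, while the segment before it, 65 to 87 Mb, had 1.22, 1.26 and 1.33. The step lay 3 bins inside 16g. Further low segments were 14.5 to 19 Mb on 16p, at 0.796, 0.822 and 0.842, 59.5 to 65 Mb on 16q, at 0.790, 0.805 and 0.754, and 32 to 35.5 Mb beside the centromere, at 0.599, 0.587 and 0.552. On chromosome 17 coverage stayed low over the short arm, at 0.835, 0.859 and 0.952 from 0 to 18 Mb and 0.725, 0.744 and 0.787 from 18 to 25.5 Mb. It was highest just past the centromere, at 1.35, 1.46 and 1.55 from 25.5 to 28.5 Mb, and 1.15, 1.24 and 1.34 over the rest of the long arm from 28.5 to 81.5 Mb. The long 17q segment held no step at 48.5 or 74 Mb. The remaining segments of chromosome 16 had 1.17, 1.26 and 1.36 from 0 to 14.5 Mb, 1.19, 1.21 and 1.29 from 19 to 28.5 Mb, 0.761, 0.881 and 0.997 from 28.5 to 32 Mb, and 1.30, 1.32 and 1.37 from 46.5 to 59.5 Mb.

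Chromosomes 16 and 17 held many joins to other chromosomes. A pair of bins from 2 chromosomes counted as joined where the 3 matrices together held 20 or more contacts and this was 10 or more times what the coverage of the bins predicts. An end on chromosome 16 or 17 was found in 303 of the 730 such pairs, or 41.5%, while these chromosomes took part in 11.4% of the pairs tested. The rule called 0.0151% of pairs with an end on 16 or 17 and 0.00416% of all pairs. Merging touching pairs gave 104 clusters on 16 or 17, of which 68 were single pairs and 14 were large, with at least 5 bin pairs. The genome had 28 large clusters. Of the joined pairs, 83 lay between chromosomes 5 and 16, 77 between 16 and 17, 58 between 7 and 16, 35 between 16 and 21, 21 between 5 and 17, 7 between 1 and 16 and 6 between 10 and 17.

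A corner is a pair of break positions around which 1 of the 4 quadrants carries the block. It counted as placed where the 3 matrices gave its positions within 1 bin and the same orientation. The level around it also had to be at most 2.5 times the expectation. Agreement of the matrices is thus part of the rule and no separate result. For 9 of the 14 large clusters a corner was placed, and these gave 8 distinct corners. In the summed matrix, the strongest 5 by 5 Mb square beside 6 of them held at least 6 times the expected contacts. The other 5 large clusters did not meet the rule. They lay inside blocks that these corners already bound, or had no clear corner.

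The largest cluster joined chromosome 5 at 157 Mb to chromosome 16 at 81.5 Mb. It had 500 contacts over 51 bin pairs in ATRA, 754 in TPA and 732 in untreated cells, or 12.1, 19.9 and 19.1 times the expectation. Its corner carried contacts in 2 opposite quadrants and not in the other 2. The square of chromosome 5 below the break with chromosome 16 above it held 8.00 times the expectation in ATRA, 10.9 in TPA and 9.80 in untreated cells, and the square of 5 above with 16 below held 6.72, 11.4 and 10.2. The other 2 squares held 1.07, 0.934 and 0.833, and 1.06, 1.04 and 0.828. The raised squares place 16e next to 5e and 5d next to 16f. In ATRA both squares were lower than in the other matrices, with intervals of 7.35 to 8.70 for the first and 6.13 to 7.36 for the second.

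The second pattern of this kind joined chromosome 16 at 28 Mb to chromosome 21 at 33.5 Mb. The square below both breaks, 16c with 21b, held 6.62 times the expectation in ATRA, 9.17 in TPA and 8.37 in untreated cells. The square above both, 16d with the other side of the break on 21, held 5.38, 4.23 and 6.48. The 2 mixed squares held 1.104, 1.08 and 1.43, and 1.43, 1.33 and 2.44. The contacts of 16d with chromosome 21 were confined to a short piece, 21c, from 33.5 to 35 Mb, where they reached 11.1, 9.19 and 14.1 times the expectation, while 16d with 21d beyond it had 0.974 in the summed matrix. Large clusters here were the main one at the corner, with 395 contacts in ATRA, 478 in TPA and 613 in untreated cells (19.5, 21.2 and 28.3 times the expectation), and a smaller one at 29.5 to 31.5 Mb on 16 (12.9, 14.7 and 13.5).

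Chromosome 7 at 131 Mb was joined to chromosome 16 at 85.5 Mb. The square of 7 above with 16 below, 7b with 16f, held 7.76 times the expectation in ATRA, 10.4 in TPA and 10.1 in untreated cells. The square of 7 below with 16 above, 7a with 16g, held 5.74, 5.85 and 5.23. The square of 7 below with 16 below, 7a with 16f, held 2.95, 3.69 and 3.80, and the square above both breaks 0.676, 0.325 and 0.499. Contacts of 7b reached across all of chromosome 16 from 15 to 85.5 Mb. They fell with distance, at 7.10 times the expectation in the summed matrix in the last 1 Mb before the border, 3.51 from 34 to 84.5 Mb and 1.79 from 15 to 34 Mb, and were 0.794 from 0 to 15 Mb. The cluster at this corner held 288 contacts in ATRA, 356 in TPA and 393 in untreated cells, or 14.6, 16.3 and 18.3 times the expectation.

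By the square beside its corner, the join with the highest ratio linked chromosome 5 at 54 Mb to chromosome 17 at 20.5 Mb. The square held 9 kept bins of chromosome 5 and, because of the centromeric gap, only 5 of chromosome 17. The last of the 5 lies in 17c. Contacts fade away from a join, so this ratio is not on an equal footing with those of fuller squares. The square of 5 below with 17 above, 5a with 17b, held 14.2 times the expectation in ATRA (12.5 to 16.1), 19 in TPA (17.1 to 21.1) and 20.6 in untreated cells (18.5 to 22.9). The other 3 squares lay between 0.743 and 1.30 in single matrices. Its cluster held 216, 293 and 286 contacts, or 22.4, 27.4 and 30.0 times the expectation. Piece 17a stood outside this join, and its contacts with 5a were 0.940 times the expectation in the summed matrix.

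Chromosomes 16 and 17 were joined to each other at 16p 15 Mb, with a different partner on each side. Above the break, 16c met 17e at 74 Mb, and the square held 10.1 times the expectation in ATRA, 6.95 in TPA and 10.2 in untreated cells. Below the break, 16b met the start of 17q, and the square held 7.24, 7.51 and 8.67. This second corner was placed at 24 Mb on chromosome 17, within the centromeric gap, so its position is known only to lie before the first kept bin of 17q. Crossed squares were low, with 16b and 17e at 0.855, 0.829 and 1.16 and 16c with the first bins of 17q at 1.08, 1.24 and 1.19. In all, 6 of the 14 large clusters lay between chromosomes 16 and 17. The largest, at 15 to 16.5 Mb on 16 and 74 to 76.5 Mb on 17, held 159 contacts in ATRA, 159 in TPA and 203 in untreated cells, or 27.8, 20.4 and 24.9 times the expectation. At the second corner the cluster of 16b at 13.5 to 15 Mb with 17c at 25.5 to 27 Mb held 96, 110 and 118 contacts, or 15.0, 15.9 and 17.9 times the expectation.

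**Figure D2:**
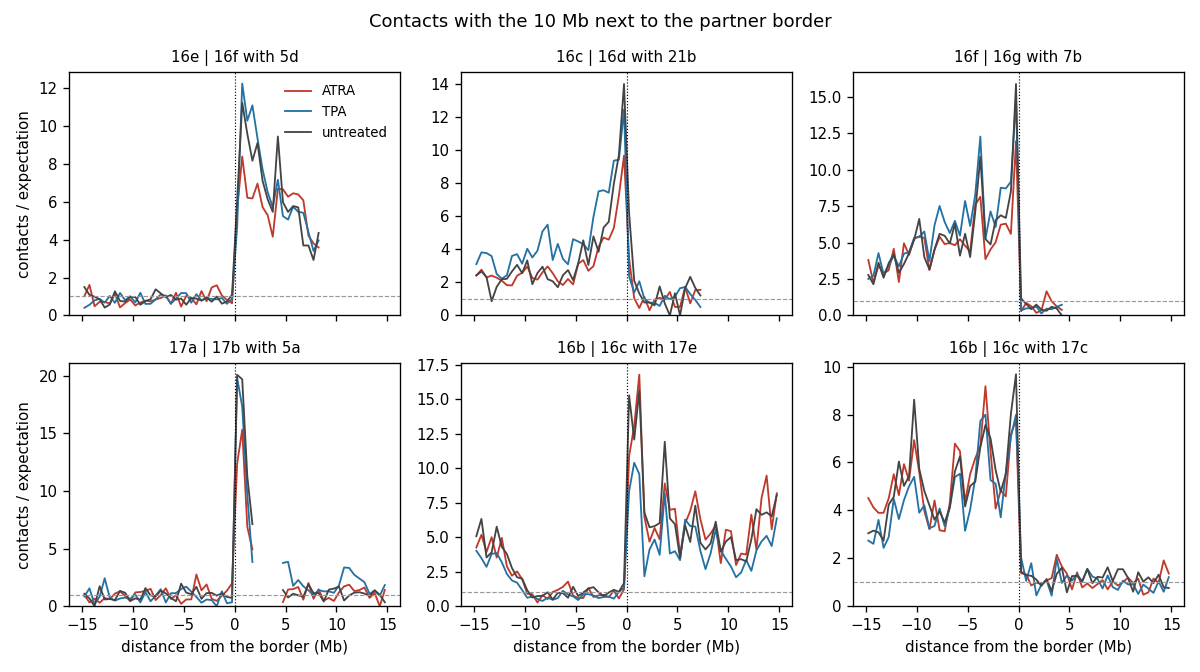
Contacts over the coverage expectation (y axis, linear from 0) along chromosome 16 or 17, by distance from a join border (x axis, Mb), with the 10 Mb next to the border on the joined side of the partner, in ATRA, TPA and untreated cells. In each of the 6 panels the contacts peak on the joined side of distance 0. The side that is not joined lies around 1 in 5 panels and mostly below 1 for 16g with 7b, and in the panel of 21b its first bin is still raised, at 3.44 in ATRA, 2.37 in TPA and 6.19 in untreated cells. A rise on that side stands beyond 10 Mb left of the border of 16b with 16c for 17e, where 16a begins, and panel titles name the pieces left and right of the border and the partner piece.

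Weaker corners were placed for 2 short clusters. Chromosome 10 at 37.5 Mb with chromosome 17 at 27.5 Mb held 4.76 times the expectation in the strongest square in ATRA, 3.83 in TPA and 5.88 in untreated cells, and farther out the summed matrix was at 1.19. Chromosome 1 at 146.5 Mb with chromosome 16 at 71.5 Mb held 4.71, 4.57 and 6.56, and 0.844 farther out. Neither spread into a block, so neither was used for an order. The small cluster with chromosome 10 reached 18.9 times the expectation in ATRA, 15.2 in TPA and 22.6 in untreated cells over 6 bin pairs. The one with chromosome 1 reached 21.6 times the expectation in ATRA, 26.4 in TPA and 41.0 in untreated cells over 5 bin pairs.

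The 5 large clusters without a corner of their own were 16a at 2.5 to 5 Mb with 17c at 26.5 to 28 Mb (9.19 times the expectation in ATRA, 11.7 in TPA and 13.4 in untreated cells), 16b at 11 to 12.5 Mb with 17c at 26.5 to 28.5 Mb (12.7, 10.7 and 12.8), 16a at 1 to 3 Mb with 17c at 42 to 43.5 Mb (16.3, 12.8 and 16.2), 16a at 3 to 5 Mb with 17c at 36.5 to 38.5 Mb (13.7, 10.2 and 10.5), and 16e at 66.5 to 68.5 Mb with 5e at 176 to 177 Mb (12.9, 8.39 and 16.0). In every one of them the pieces involved also touched at larger scale, with 5.39 times the expectation for 16a with 17c in the summed matrix, 3.46 for 16b with 17c and 3.84 for 16e with 5e.

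Contacts between whole pieces extended the joins into runs. Piece by piece, 16e with 5e had 3.51 times the expectation in ATRA, 3.98 in TPA and 4.00 in untreated cells, and 16e with 7b had 3.16, 3.58 and 3.31. At 81.5 Mb 16e ran into 5e in one pattern and into 16f, and beyond it 7b, in the other, so a single linear order could not hold both. The same held for 16b, which met 21b (2.32, 3.73 and 2.21) through 16c and also 17c (3.598, 3.07 and 3.71), and for 16c, 16d and 16f.

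**Figure D3:**
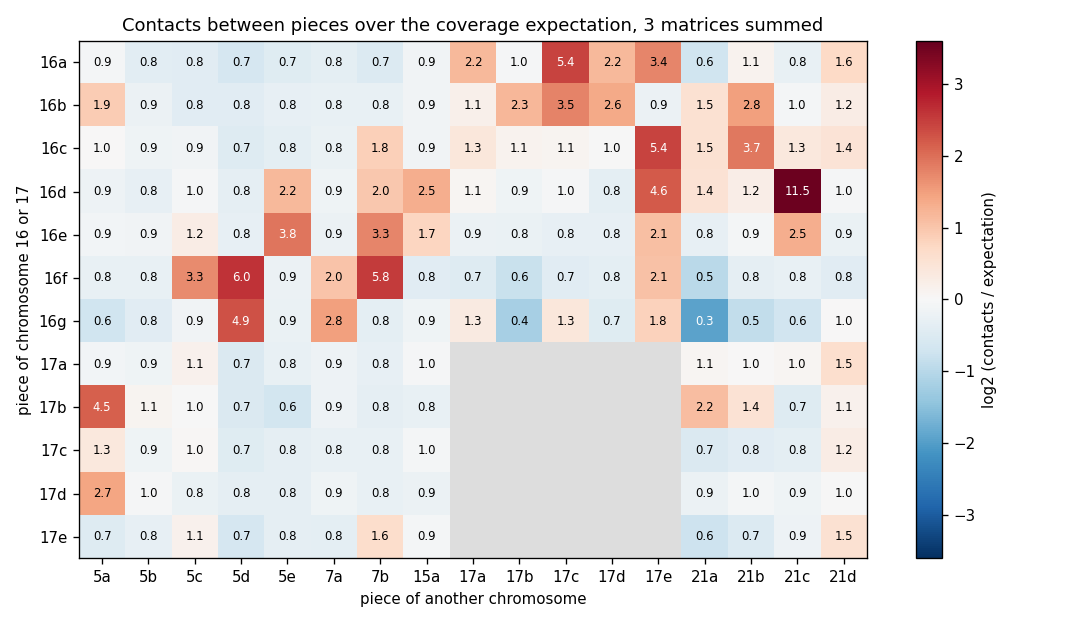
Contacts between each piece of chromosome 16 or 17 (rows) and each piece of another chromosome (columns) over the coverage expectation in the 3 matrices summed; the number in each cell is the ratio and the colour its log2. Pairs within chromosome 17 are grey. Raised cells form runs that share a border, such as 16d and 16e with 5e, 16c to 16f with 7b, and 16f and 16g with 5d, and 16d with 21c is the highest at 11.5.

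An order in which each placed border is used once reads as 5 runs. The first runs from chromosome 15 through 21c into 16d, across the centromere of 16 and 16e, and into 5e. The second starts with 17e, turned round at 74 Mb, and goes through 16c, 16d, 16e and 16f into 7b. The third goes from 16b through 16c into 21b and 21a. The fourth goes from 16a and 16b into 17c and 17d and then, through 17b, into 5a. The fifth goes from 7a through 5d into 16f and 16g. Pieces 16b to 16f then stand in 2 runs each, 16a and 16g in 1, 17b to 17e in 1, and 17a in none. Coverage followed this count only in part, since 16g and 17a were low, while 16d was low with a count of 2 and 17c to 17e were high with a count of 1. Contacts within pieces carry no information on whether unjoined copies also exist, and such copies are not in the count.

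The runs use joins between partner chromosomes as well. At 5q 139.5 Mb with chromosome 7 at 131 Mb, the square of 5 above with 7 below held 10.6 times the expectation in the summed matrix, which places 5d between 7a and 16f. Chromosome 15 at 22.5 Mb with chromosome 21 at 35 Mb held 4.80 and 4.18 in 2 opposite squares. Pieces that would lie in 1 run without touching each other then had raised contacts too. In the summed matrix 15 with 16d had 2.47 times the expectation, 15 with 16e 1.73 and 15 with 5e 1.53. Likewise 7a with 16g had 2.77 and 7a with 16f 2.02, 17e with 7b had 1.55, and 21c with 5e 1.78. In the fifth run 16f lies nearer to 7a than 16g does, so the contacts of 7a did not fall with distance along it. Contacts of 16g with 7a were also highest away from the 131 Mb border. They reached 13.8 times the expectation at 99.5 to 102.5 Mb and 7.65 at 0 to 3 Mb, against 6.39 at 127 to 131 Mb. The order does not cover this, and its source was not tested.

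Between pieces of different chromosomes, 25 pairs joined once in these runs had 1.46 to 11.5 times the expectation, with a median of 3.02, and 23 of them were at or above 1.5. Another 13 pairs linked through other pieces had 0.943 to 2.77, with a median of 1.78, and 10 of them were at or above 1.5. The 190 pairs with no run in common had 0.263 to 3.37, with a median of 0.868, and 8 were at or above 1.5. The runs were drawn from these same contacts, so these counts describe how much of the map they cover and do not test them.

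The fourth run was the least settled. Contacts of 5a with the last 10 Mb of 17d, from 64 to 74 Mb, were highest next to the 54 Mb border. They were 3.48 times the expectation in ATRA, 4.51 in TPA and 4.52 in untreated cells for 44 to 54 Mb on chromosome 5, 3.24, 3.16 and 4.06 for 34 to 44 Mb, 2.81, 2.70 and 3.62 for 24 to 34 Mb, 2.47, 2.97 and 3.31 for 14 to 24 Mb, and 2.29, 2.76 and 2.92 for 4 to 14 Mb. For 0 to 4 Mb they were higher again, at 2.93, 3.28 and 3.26. In ATRA and untreated cells they fell in each step up to 4 to 14 Mb, and in TPA only up to 24 to 34 Mb. The 17d end at 74 Mb was placed on the side of 5a that is joined to 17b. Within chromosome 17 the bins from 20.5 to 21.5 Mb met those from 73.5 to 74 Mb 6.34 times as often as their distance predicts. That is the end of 17b which the run already joins to 5a. At its other end, single pairs of 22 to 22.5 Mb with 70 to 70.5 Mb and 71.5 to 72 Mb stood at 6.16 and 5.15. Pieces 17b and 17d were also both B-like, as given below, so how they meet is not settled. Contacts of 5a with 16b, at the far end of the run, showed no such slope, with 1.96 for 44 to 54 Mb in the summed matrix, 1.598 for 24 to 34 Mb and 2.69 for 0 to 4 Mb. Piece 16a had high contacts with 17c but only 0.943 with 5a and 0.978 with 17b, so its place in this run is not settled.

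The pairs above 1.5 outside the runs were led by 16a with 17e, at 3.49 times the expectation in ATRA, 2.73 in TPA and 3.81 in untreated cells, and 5c with 16f, at 2.87, 2.96 and 3.93. Piece 16a also met 17a at 1.98, 1.78 and 2.83 and 21d at 1.65, 1.51 and 1.72. The others in the summed matrix were 17b with 21a (2.18 on 48 contacts), 16g with 17e (1.78), 5c with 7b (1.54) and 17a with 21d (1.52). Pieces 16a, 17e, 16g, 17c and 17a had the highest A compartment scores from contacts with other chromosomes, as given below. The part of compartment contacts in these pairs was not tested.

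Contacts within chromosomes 16 and 17 were thinned at most of the joined borders that could be measured, once the matrices were balanced. For each position the contacts between the 10 bins on its left and the 10 on its right were divided by the contacts expected at the same distances, after balancing each matrix to equal coverage. Over 5217 positions of the genome the summed matrix had a median of 0.953 and a 10th percentile of 0.741. Of the 7 borders that could be measured in this way, 6 lay below that percentile. These 6 include the borders at 5 Mb on chromosome 16 and 48.5 Mb on chromosome 17, which have no corner. With raw in place of balanced contacts 0 of the 7 lay below the 10th percentile of raw values, and 17q 74 Mb, for example, stood at 0.707 in the summed matrix, against 0.419 balanced. In balanced contacts of each matrix the dips were as follows. At 17q 74 Mb the value was 0.487 in ATRA, 0.356 in TPA and 0.424 in untreated cells. At 16p 28 Mb it was 0.504, 0.446 and 0.498, and at 16p 15 Mb 0.591, 0.513 and 0.566. At 16q 81.5 Mb it was 0.602, 0.615 and 0.637, and in the summed matrix a window of 20 bins on each side gave 0.452 while one of 5 bins gave 0.800, which was not below the 10th percentile. The exception was 85.5 Mb on 16q, at 1.02, 0.677 and 0.747, and 1.09 in the summed matrix with 5 bins on each side. The border of 17a with 17b at 20.5 Mb had no value with 10 bins. With 5 bins it had 0.778 in the summed matrix, above 19.045% of positions, and with 20 bins 0.916, above 38.8%, so it was not among the thinned borders. Whether the remaining contacts belonged to unbroken copies or to pieces brought near through shared partners cannot be told apart here.

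The other 2 borders, 5 Mb on chromosome 16 and 48.5 Mb on chromosome 17, were set by where contacts with other chromosomes change and have no corner. Their values were 0.459 in ATRA, 0.282 in TPA and 0.532 in untreated cells at 5 Mb, and 0.531, 0.409 and 0.489 at 48.5 Mb. Across 48.5 Mb both compartment scores given below change, so a break and a compartment border cannot be told apart there. Across 5 Mb the score within the chromosome stays positive on both sides, and the score that changes rests on the contacts with other chromosomes that set this border. In the summed matrix, dips as low were found at positions that no join marks. They were 0.489 at 54.5 Mb on chromosome 17, and 0.354 at 32 Mb and 0.409 at 66.5 Mb on chromosome 16. Low values also stood close to borders, with 0.333 at 49.5 Mb on chromosome 17 and 0.493 at 83.5 Mb on chromosome 16. These positions share much of their windows with the borders, so they may not be separate dips.

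**Figure D4:**
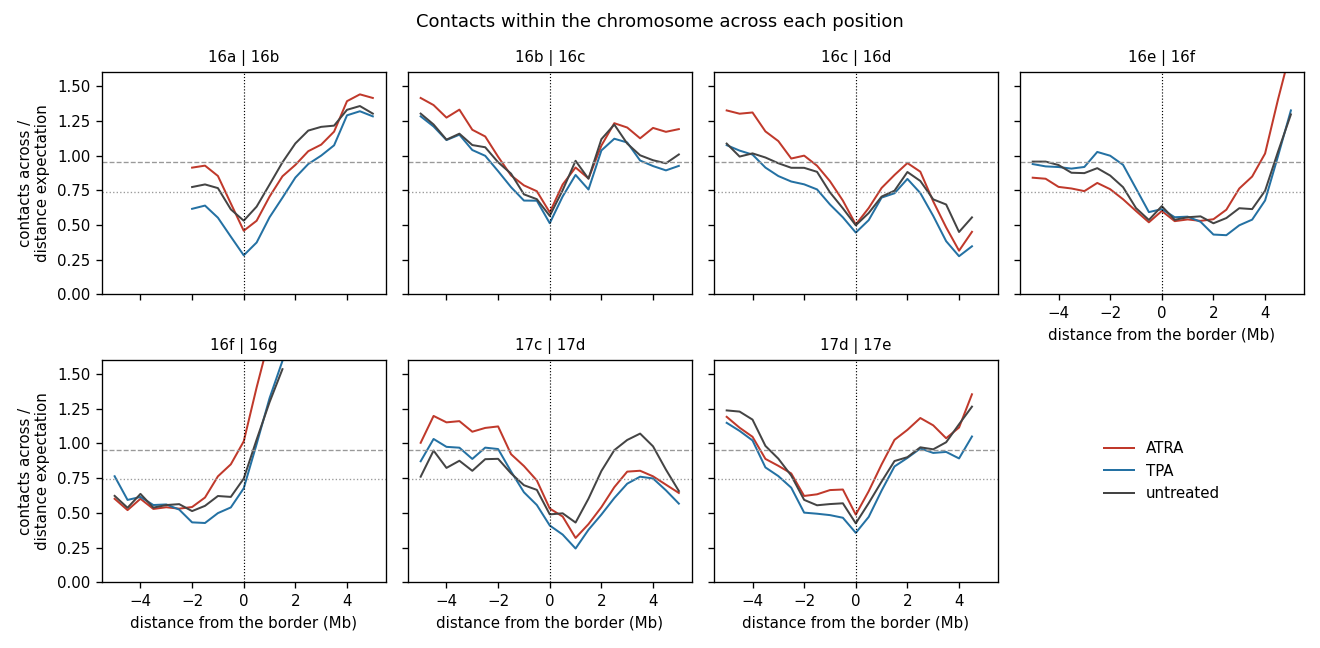
Contacts across each position within the chromosome over the distance expectation (y axis), by distance from the border (x axis, Mb), for the 5 measurable corner borders and the borders 16a to 16b and 17c to 17d, in ATRA, TPA and untreated cells. The dashed line is the median of 5217 genome positions at 0.953 and the dotted line their 10th percentile at 0.741. The curves dip at the borders of 16b with 16c, 16c with 16d and 17d with 17e, and are flat and low from 16e to 16f.

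At larger distances some pairs of pieces on either side of a break had few contacts. Piece 16e with 16g had 0.108 times the distance expectation in ATRA, 0.0966 in TPA and 0.127 in untreated cells, the lowest pair within either chromosome. Piece 16b with 16d had 0.134, 0.147 and 0.179. On chromosome 17, 17d had 0.416, 0.339 and 0.416 with its neighbour 17e, whereas the more distant 17c had 1.68, 1.45 and 1.52 with 17e. Piece 17b had 0.405, 0.369 and 0.553 with its neighbour 17c and 1.21, 1.27 and 1.35 with 17d, which lies farther away on the normal chromosome. Each of these low pairs set a piece with a positive mean compartment score, given below, against a piece with a negative one. Pieces 17c and 17e both had positive means, and 17b and 17d both negative ones. The part of compartments in these values was not tested. Other neighbours across a placed break were closer to the expectation, with 17a and 17b at 1.02, 0.805 and 1.01, and 16f and 16g at 1.14, 0.769 and 0.823. Contacts between the short and the long arm were 0.678 times the expectation on chromosome 16 in ATRA, 0.594 in TPA and 0.683 in untreated cells, and 0.678, 0.568 and 0.734 on chromosome 17. In the summed matrix these were the lowest of 18 chromosomes with 2 measured arms, at 0.649 for 16 and 0.659 for 17, and the median was 1.00.

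Of pairs within a chromosome that lie 10 Mb or more apart, 0.0283% held 20 or more contacts over the 3 matrices and 5 or more times the distance expectation. Chromosomes 16 and 17 held 15 separate spots of this kind. This counts merged pairs, so it cannot be set beside the share of all pairs, and no share was computed for these chromosomes alone. The largest, between 40 to 42.5 Mb and 79 to 81.5 Mb on chromosome 17, covered 9 bin pairs with 239 contacts in ATRA, 343 in TPA and 433 in untreated cells, 9.32 times the expectation in the summed matrix. It lies between 17c and 17e, the pair that also had more contacts than its distance predicts. These pieces share no run above, so the order drawn there does not cover their contacts. The spot between 20.5 to 21.5 Mb and 73.5 to 74 Mb, named above, had 18, 30 and 46 contacts. No other spot had more than 2 bin pairs.

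Compartments were scored by the leading eigenvector of the distance-corrected map of each chromosome, positive for A, in units of its SD over bins. The ends of chromosome 16 were the most A-like, with a mean score in 16a of 1.39 in ATRA, 1.28 in TPA and 1.41 in untreated cells, and in 16g of 1.92, 1.95 and 1.67. Piece 16b was A as well, at 1.12, 0.869 and 1.28, and 16e was mostly B, at -0.72, -0.64 and -0.79, with 8.57%, 14.3% and 8.57% of its bins positive. On chromosome 17, 17c was A, at 0.702, 0.646 and 0.589, and 17e likewise at 0.538, 0.597 and 0.669. Piece 17d was B at -0.43, -0.35 and -0.76, and 17b was the most B-like at -1.32, -1.17 and -1.04. Piece 17a was mixed, with 39.0% of bins positive in ATRA and in TPA and 58.5% in untreated cells.

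Where pieces of a chromosome lie on different molecules, its eigenvector can follow the breaks as well as the compartments. Piece membership accounted for 76.8% of the variance of the score over bins of chromosome 16 and 26.6% on chromosome 17. A second score, from contacts with other chromosomes alone, gave 59.2% and 41.0%. The 2 scores correlated over bins at 0.725 on chromosome 16 and 0.830 on chromosome 17, beside a median of 0.803 over 23 chromosomes. By the second score 16a was the most A-like of the 12 pieces, at 4.13 in ATRA, 3.83 in TPA and 3.99 in untreated cells, followed by 17e at 3.05, 2.69 and 2.95 and 16g at 2.18, 2.13 and 2.08. Piece 16b, which the score within the chromosome put close to 16a, had only 0.44, -0.36 and 0.76 by contacts with other chromosomes, so the 2 scores part at the 5 Mb border. Across 48.5 Mb the second score fell to 0.33, 0.20 and 0.37 in 17d, against 1.98, 1.77 and 1.91 in 17c.

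Few bins switched compartment by the score within the chromosome, although the share of positive bins differed between matrices in several pieces. In 16f, of 8 bins, 87.5% were positive in ATRA, 75% in TPA and 37.5% in untreated cells. In 16c the shares were 42.3%, 34.6% and 65.4%, and in 17d 45.1%, 47.1% and 29.4%. A switch was a bin past 0.5 SD on one side in untreated cells and past 0.5 SD on the other in treated cells. In ATRA 1 of 316 bins switched from positive to negative and 0 the other way, beside 0.497% and 0.249% of all 5630 bins. In TPA 1 bin switched from positive to negative and 2 from negative to positive, beside 1.56% and 0.604%. The bin that turned negative in both lies at 16 to 16.5 Mb on 17p, with scores of -0.65 in ATRA, -0.73 in TPA and 0.883 in untreated cells, but it stayed positive by contacts with other chromosomes, at 0.912, 0.989 and 2.31. The 2 bins that turned positive in TPA lie together at 57 to 58 Mb on 16q. The first had -0.46 in ATRA, 0.529 in TPA and -0.53 in untreated cells, the second -0.13, 0.561 and -0.77, and both were already positive by contacts with other chromosomes in every matrix. By this score the shares were near or below those of the genome. By contacts with other chromosomes 0 of 316 bins switched in either direction in ATRA, beside 0.231% from positive to negative and 0.0355% the other way of all bins. In TPA 6 switched from positive to negative and 0 the other way, beside 0.337% and 0.142%, so the first count was above the share of the genome. These bins lie at 7 to 7.5 Mb and 9.5 to 10.5 Mb in 16b, at 10.5 to 11 Mb in 17a, and at 31 to 31.5 Mb and 32 to 32.5 Mb in 17c. By the score within the chromosome those of 16b were positive and those of 17 negative in every matrix. Within-chromosome scores of treated and untreated cells correlated over bins at 0.925 in ATRA and 0.861 in TPA on chromosome 16, and at 0.891 and 0.874 on chromosome 17, beside medians over chromosomes of 0.917 and 0.846.

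In both treated matrices chromosomes 16 and 17 held a smaller share of contacts within themselves. On chromosome 16 the share was 14.8% in ATRA, 17.1% in TPA and 20.1% in untreated cells, and on chromosome 17 it was 18.3%, 19.5% and 24.2%. The medians over 23 chromosomes were 18.3%, 20.8% and 23.8%, a difference of -5.38 percentage points in ATRA and -1.995 in TPA as the median over chromosomes. Chromosome 16 differed by -5.26 points in ATRA and -2.98 in TPA and chromosome 17 by -5.85 and -4.65, so in ATRA both were close to the genome and in TPA chromosome 17 differed more than every other chromosome except 19, which was at -6.16. ATRA and TPA are compared with the same untreated matrix here and below.

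Coverage of the A-like ends was lower in treated cells. In ATRA the log2 ratio to untreated cells was -0.50 for 16a (interval -0.52 to -0.48), -0.39 for 16g (-0.42 to -0.36), -0.41 for 17e (-0.43 to -0.40) and -0.25 for 17c, and no lower than -0.20 for the other pieces. In TPA it was -0.18 for 16a, -0.14 for 16g, -0.17 for 17e, -0.12 for 17c and -0.15 for 17a. Chromosome 19, rich in genes and joined to 17 by a single bin pair and to 16 by none, moved the same way, with medians of -0.43 and -0.16. Chromosome 22 had -0.27 and -0.13, and chromosomes 17 and 16 followed in both matrices, at -0.21 and -0.12 for 17 and -0.09 and -0.07 for 16. The part of copy number, library preparation or chromatin in these differences was not tested.

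Contacts between chromosomes 16 and 17 were 1.49 times the coverage expectation in ATRA, 1.42 in TPA and 1.59 in untreated cells. This expectation came from whole-chromosome totals of contacts with other chromosomes. The log2 ratio to untreated cells was -0.10 (-0.13 to -0.07) in ATRA and -0.17 (-0.20 to -0.15) in TPA. Scaled to the matrix total in place of coverage they were -0.20 in ATRA and -0.15 in TPA, so the order of the treatments depends on the scale. With all bin pairs of the joined pieces left out, contacts stood at 0.887, 0.862 and 0.954 times the expectation from bin coverage. That expectation is not the one used for whole chromosomes. The log2 ratios were -0.10 (-0.14 to -0.06) and -0.15 (-0.18 to -0.11). Contact of 16 with 17 was thus lower in treated cells away from the joins too. In untreated cells the 5 highest partners of chromosome 16 were 17, 15, 21, 7 and 5, the chromosomes of its runs, while those of chromosome 17 were led by 22 and 19.

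Of the 43 pairs of chromosomes that include 16 or 17, 0 were raised and 4 were lowered at least 1.1-fold in ATRA, beside 3.16% raised and 2.77% lowered of all 253 pairs, and 2 were raised and 6 lowered in TPA, beside 5.53% and 3.56%. The lowered pairs were led by other gene-rich chromosomes. Chromosome 17 with 19 had 1.29 times the expectation in ATRA, 1.28 in TPA and 1.65 in untreated cells, log2 ratios of -0.36 and -0.36. Chromosome 17 with 22 had -0.19 and -0.29 and with 20 -0.16 and -0.23, and 16 with 19 had -0.23 and -0.19. In ATRA the next lowered partner of 16 after 19 and 17 was 21 at -0.07, and in TPA it was 22 at -0.15. The most raised partners of 16 were 3, X and 6 in ATRA, at 0.08, 0.08 and 0.07, and 21, 18 and 5 in TPA, at 0.13, 0.12 and 0.09. For 17 they were 6, 8 and 7 in ATRA, at 0.12, 0.11 and 0.10, and 13, 4 and 6 in TPA, at 0.15, 0.14 and 0.11.

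The TPA gain of chromosome 16 with 21 lay in pairs of pieces that share a run, and that with 5 did so only in part. Over the 6 such pairs of 16 with 21 the log2 ratio of TPA to untreated cells was 0.32 (0.26 to 0.38), and over all other bin pairs of 16 with 21 it was -0.04 (-0.09 to 0.01). For 16 with 5 it was 0.12 (0.08 to 0.15) over 6 such pairs and 0.07 (0.04 to 0.10) over the others. Piece 16b with 21b had 2.32 times the expectation in ATRA (2.18 to 2.47), 3.73 in TPA (3.55 to 3.90) and 2.21 in untreated cells (2.08 to 2.35), and 16c with 21b had 2.88, 4.57 and 3.67. Piece 16b with 5a, at the other end of the fourth run, had 1.65, 2.37 and 1.56. In both pairs with 16b only the TPA matrix stood apart. Not all pairs of the runs were higher in TPA, since 16d with 21c had 9.19 in TPA and 14.1 in untreated cells, and 16e with 5e 3.98 and 4.00. The score of 16b from contacts with other chromosomes was lowest in TPA, at -0.36 with 20% of its bins positive. In ATRA it was 0.44 with 75%, also below the 0.76 with 95% of untreated cells. Whether these belong together was not tested.

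The joined clusters themselves were weaker in treated cells on the coverage scale. The median log2 ratio of the 14 large clusters of 16 and 17 was -0.28 in ATRA, with 11 below 0, and -0.22 in TPA, with 12 below 0. The interval lay wholly below 0 for 5 in ATRA and 4 in TPA, beside 50% and 28.6% of all 28 large clusters, and wholly above 0 for 0 of them, beside 0% in both. The 14 other large clusters of the genome had medians of -0.42 and -0.22. In ATRA the intervals below 0 belonged to 5 with 16 at -0.65 (-0.82 to -0.49), 1 with 16 at -0.92, 16 with 21 at -0.53, 5 with 17 at -0.42 and 7 with 16 at -0.33. In TPA they belonged to 16e with 5e at -0.93, 1 with 16 at -0.64, 10 with 17 at -0.57 and 16 with 21 at -0.42. The cluster of 5 with 16 that was lowest among the main joins in ATRA had an interval that included 0 in TPA, at 0.06 (-0.09 to 0.21). Contacts at a join are contacts along 1 molecule, and contacts within chromosomes were also fewer in treated cells. Set against contacts within chromosomes at the same distances in place of coverage, the median over the 9 clusters of placed corners was 0.12 in ATRA and 0.04 in TPA, against -0.33 and -0.17 on the coverage scale. The direction of the change therefore depends on the scale.

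**Figure D5:**
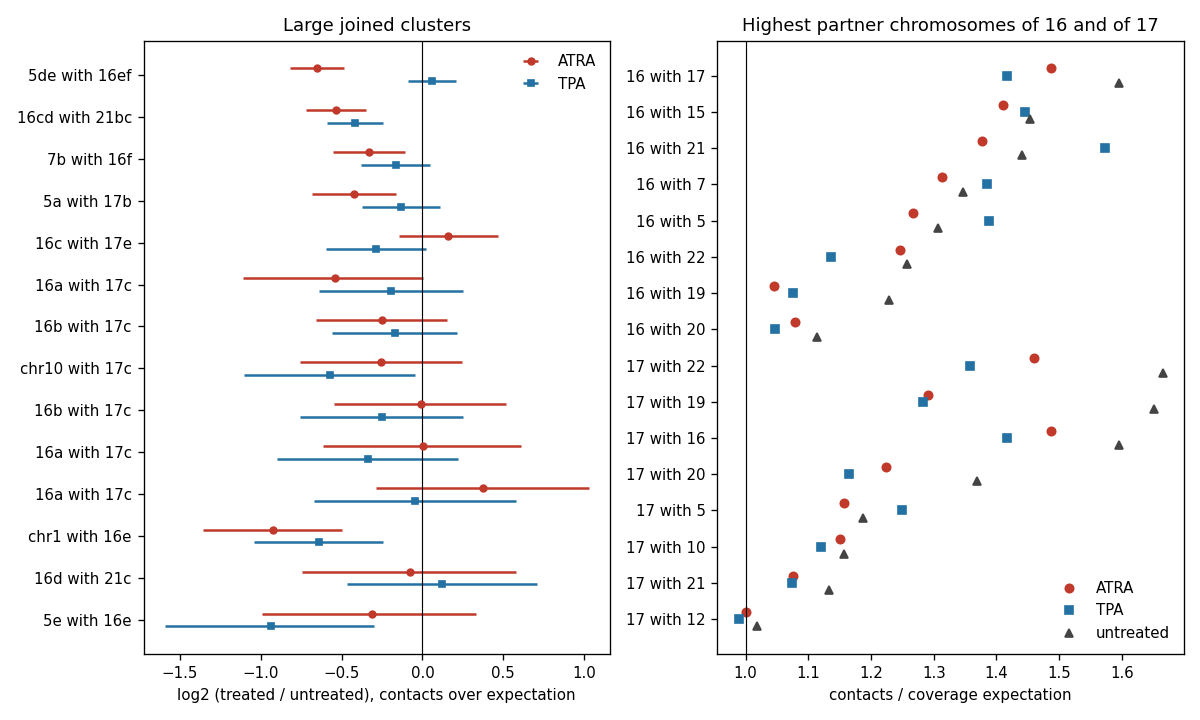
Left, log2 ratio to untreated cells of contacts over the coverage expectation (x axis) for the 14 large joined clusters of 16 and 17 (rows, named by the pieces they cover), in ATRA and TPA with 95% counting intervals. Right, contacts of chromosomes 16 and 17 with their 8 highest partners each, in ATRA, TPA and untreated cells. The x axis there is contacts over the coverage expectation from whole-chromosome totals. Most points on the left lie below 0, with the lowest at -0.93 for 16e with 5e in TPA, and on the right the untreated points exceed the treated ones most for 17 with 19 and 17 with 22.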

How the data were processed

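Per the labels' protocols, HL60 chromatin was fixed, cut with HindIII and religated in solution. The series' design text names Bowtie for alignment, HiCUP for filtering and HOMER for the matrices. The submitters' processing notes add version 4.7 of HOMER and the build hg19, and the sources used here state no filter settings. The authors deposited 3 matrices of raw contact counts between 500 kb bins, without normalization, with the 2 libraries of TPA and of untreated cells pooled. The median bin held 3272 contacts in ATRA, 3466 in TPA and 3461 in untreated cells.

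Diagonal values were halved, since each contact within a bin had been counted from either end. In the untreated matrix 1 cell differed from its mirror, so only the upper triangle was read. Expectations between chromosomes were the product of the bins' contacts with other chromosomes. For pairs of whole chromosomes they were a product fitted to each chromosome's total contacts with other chromosomes. Expectations within chromosomes were the mean at the same distance after balancing in 60 iterations. Coverage steps needed 0.3 on the log2 scale in the summed matrix and 0.15 in each matrix, in segments of at least 6 bins. Corners were placed by Poisson likelihood, and borders 5 and 48.5 Mb by the extent of contacts with other chromosomes. Intervals are exact Poisson, binomial or conditional binomial 95% intervals for counting error only. PCR reads are not independent molecules, which these intervals leave out. Scripts used Python 3.11.15, numpy 2.4.6 and scipy 1.17.1, and were tested on simulated data. The regions named are all large clusters, coverage segments, borders and switching bins of both chromosomes and the 3 most raised and lowered partners of each. The members and lists were chosen with earlier results of these data known. The alternatives tried are given at the end.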

Additional observations from a re-analysis of the deposited data

How the results depend on the processing

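No paired analysis was possible because the replicates are pooled inside the matrices, and for the same reason no replicate could be left out. With contacts between chromosomes only, the log2 step from 16f to 16g was -1.20 in ATRA, -0.999 in TPA and -1.01 in untreated cells, against -1.14, -0.95 and -0.91. The 14 large clusters became 23 at 5 times the expectation, 4 at 20 times, 27 at 10 contacts and 8 with an expectation per pair of chromosomes, as looser and stricter limits must give. The 2 looser limits keep every called pair, so they overlap all 14 by construction. Of the 14, 8 were overlapped with the expectation per pair of chromosomes and 4 at 20 times. With raw in place of balanced contacts, 0 of the 7 borders lay below the 10th percentile across the border; the cause was not tested. The switching bins, 1 in ATRA and 3 in TPA, became 0 in ATRA with raw contacts, 0 and 0 per chromosome arm, 0 and 6 from contacts with other chromosomes (all 6 from positive to negative, beside 0.337% of all bins), 9 and 13 at 0.25 SD, and 0 and 0 at 1 SD. Scaled to the matrix total, contacts of 16 with 17 had a log2 ratio of -0.20 in ATRA and -0.15 in TPA, against -0.10 and -0.17. Without the diagonal, the share of contacts within the chromosome differed by -3.87 points in ATRA and -2.25 in TPA on 16, and by -4.58 and -3.77 on 17. Against contacts within chromosomes at the same distances, join strength turned to 0.12 in ATRA and 0.036 in TPA, against -0.33 and -0.17. Without the pairs of pieces that share a run, contacts of 16 with 21 in TPA turned to -0.038, with an interval that includes 0, against 0.13, and those of 16 with 5 in ATRA to 0.047, against -0.04. This setting and the one without all bin pairs of joined pieces were added after seeing the data. Of 71 alternative values, 38 stayed, 29 moved and 4 turned direction, by a rule for each kind of result. Ratios and shares stayed if within counting error, and counts if within 1.5 times. Single borders stayed if on the same side of the 10th percentile. Correlations had a fixed limit, and join strength the spread over clusters. Bins of 500 kb limit every position, and single bin pairs carry few contacts.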

Other observations

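Contacts under 2 Mb made up a smaller part of the contacts within both chromosomes in treated cells. On chromosome 16 they were 55.9% in ATRA, 57.1% in TPA and 63.6% in untreated cells. On chromosome 17 they were 59.1% in ATRA, 59.0% in TPA and 63.9% in untreated cells. The shift was in the same direction on every other chromosome. Whether it belongs to the treatments or to the libraries cannot be told apart.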
